A study of Homo sapiens with 6 samples.

Results

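The genes examined were 55 mitotic genes, comprising kinases, spindle checkpoint, kinetochore, anaphase, cytokinesis and condensin genes, out of 74852 genes listed in MDA-MB-231 cells silenced for NEK2. They were chosen by name, and the row of each gene symbol was taken from the table of normalized counts. All 55 were found and all 55 passed the filter on low values, with means over the libraries between 1254 and 39669 normalized counts. MDA-MB-231 is a human cell line of triple negative breast cancer (TNBC), that is, breast cancer without estrogen, progesterone and HER2 receptors. PolyA-enriched RNA was sequenced from 3 libraries of cells that received 4 pooled control siRNAs (si-CTRL) and 3 libraries of cells that received 4 pooled siRNAs targeting NEK2 (si-NEK2). Both groups were grown in the same medium and transfected with the same lipid reagent in 2 rounds. The labels place the harvest 24 h after the second round, whereas the methods give 48 h after transfection. Silencing was transient and was made with the pool alone, not with single siRNAs. Whether the groups were prepared side by side is not given in the sources used here, so that batch and group cannot be told apart.

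Cells enter mitosis when CDK1, bound to cyclin A or cyclin B, is freed of inhibitory phosphates that WEE1 and PKMYT1 place and that CDC25 phosphatases remove. Aurora and Polo-like kinases then build the spindle, condensin compacts the chromosomes, and kinetochores attach them to microtubules. The spindle checkpoint holds the anaphase promoting complex (APC/C) inactive until attachment is complete, after which securin and cyclin B are degraded and the cell divides. The transcripts of these genes rise late in the cell cycle, largely through the DREAM, B-MYB and FOXM1 regulators. Many of their promoters hold 2 elements, the cell cycle homology region and the CCAAT box. NEK2 is itself a mitotic kinase that acts on centrosome separation. RNA was measured in bulk, so that a change in the share of cells in mitosis and a change in RNA per cell cannot be told apart.

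The promoters were inspected first because these elements are the known common feature of the genes. Promoter sequences from RefSeq (GRCh38.p14), reaching from 250 bases before to 50 bases after the gene start, were matched for 43 of the 55 genes. Without an entry were WEE1, PKMYT1, FOXM1, AURKA, TPX2, BIRC5, TTK, BUB3, KNTC1, CENPH, UBE2C and RACGAP1. The letters TTTGAA or TTCGAA of the cell cycle homology region were searched on both strands, where the former also reads TTCAAA, and the letters CCAAT were searched likewise, also reading ATTGG. The 5 examples that follow are each the 100 bases before the start, written 5′ to 3′ along the gene, with both elements in capitals. They are shown because they hold both elements in that short window and because their transcripts rose (CCNB2, CDC20, CKAP5), fell (PLK1) or passed no test (HMMR).
CCNB2 (chr15:59105046-59105145, plus strand): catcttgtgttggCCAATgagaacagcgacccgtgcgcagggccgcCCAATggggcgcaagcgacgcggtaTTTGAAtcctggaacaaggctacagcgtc
CDC20 (chr1:43358881-43358980, plus strand): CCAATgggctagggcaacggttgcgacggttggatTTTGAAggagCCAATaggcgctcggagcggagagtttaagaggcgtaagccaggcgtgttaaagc
CKAP5 (chr11:46846281-46846380, minus strand): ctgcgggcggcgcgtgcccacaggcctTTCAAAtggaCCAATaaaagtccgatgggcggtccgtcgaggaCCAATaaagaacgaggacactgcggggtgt
PLK1 (chr16:23678789-23678888, plus strand): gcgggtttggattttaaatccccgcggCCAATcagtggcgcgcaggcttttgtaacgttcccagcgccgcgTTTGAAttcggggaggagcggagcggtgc
HMMR (chr5:163460532-163460631, plus strand): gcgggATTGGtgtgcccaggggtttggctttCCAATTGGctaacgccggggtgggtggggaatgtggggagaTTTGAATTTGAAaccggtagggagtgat
In CKAP5 the homology element lies before the CCAAT boxes, whereas in CCNB2 and PLK1 it follows them, closer to the start. HMMR carries TTTGAA at 28 and again at 22 bases before its start.

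The homology region letters were present in 30 of the 43 promoters (69.8%), against 16.6% of 27305 RefSeq promoters and 11.2% of the 11110 promoters of genes tested here. CCAAT was also present in 30 (69.8%), against 35.7% of all promoters and 36.3% of those of tested genes. Both were found in 23 (53.5%), against 6.58% and 4.77%. In the 100 bases before the start both were found in 10 (23.3%), against 0.985% and 0.756%. The 23 genes with both elements had a median log2 fold change after NEK2 silencing of 0.21, and the other 20 genes a median of 0.23. CDC25B and CDC25C, which were among the genes with the larger increases, had neither set of letters in this window. The window was taken at a single start of each gene, so that elements at any other start would have been missed. A match of letters is a description of the sequence and no evidence of binding.

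**Figure D1:**
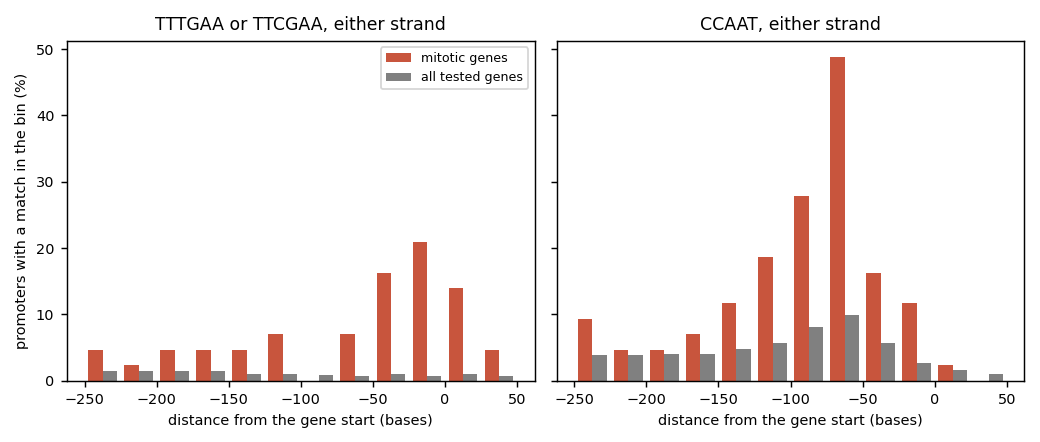
Share of promoters (%) with a match to the homology region letters (left) or to CCAAT (right) in bins of 25 bases, against the distance from the gene start in bases, for 43 mitotic genes (red) and 11110 promoters of tested genes (gray). Matches of the homology region letters were most frequent in the last bin before the start (20.9% against 0.72%), and those of CCAAT from 75 to 50 bases before it (48.8% against 9.82%).

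NEK2 was checked in every library (here and below, values of a group follow the order of replicates 1, 2 and 3). Its normalized count was 3702, 3323 and 3290.2 in the si-CTRL libraries and 284, 362 and 388 in the si-NEK2 libraries, a log2 fold change of -3.32 (standard error, SE, 0.12, adjusted p = 1.86e-06, Benjamini-Hochberg, from limma). The libraries held between 52625492 and 87454509 reads, and the first principal component, with 61.7% of the variance, separated the groups. The second, with 16.2%, set si-CTRL replicate 1 apart. Of the markers fixed for the line, VIM, fixed as present, stood between 134282 and 173162 normalized counts. ESR1, PGR and CDH1, fixed as low or absent, were at no more than 15. CD44 was also fixed as present, and its values are not given here. ERBB2 was also fixed as low or absent but was not low. It stood between 2455 and 4085, in a row shared with a microRNA gene. Of the markers of other cells, PTPRC, PECAM1, CDH5, ALB and GFAP stayed at or under 42 and ACTA2, a smooth muscle actin, between 166 and 321.

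Most of the mitotic genes (51 of 55) were not called after NEK2 silencing, and those that were called were higher. A gene was called when its p was 0.05 or less and it differed by 1.5-fold or more, with limma on log2(normalized count + 1) across 18717 genes. WEE1, CDC25B, MAD2L1 and BUB1 were called higher and 0 of 55 were called lower, whereas 8.23% of all genes tested were called higher and 14.3% lower. With the adjusted p in place of p, the same 4 genes were called higher and 0 lower, against 7.47% and 13.1% of all genes. edgeR and DESeq2 on the recovered reads also called these 4 higher and 0 lower. The 55 genes are highly expressed, and among the 7995 genes averaging 1000 or more normalized counts 7.92% were called higher and 7.32% lower.

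Without any requirement on fold change, 28 of the 55 had a p of at most 0.05 and were higher and 4 were lower, against 26.0% and 25.0% of all genes tested. With an adjusted p of at most 0.05, which is used below for "rose" and "fell", 25 rose, 4 fell (TPX2, PLK1, BUB3 and NCAPD2) and 26 did neither. Of all genes, 21.8% rose and 21.3% fell, and of those averaging 1000 or more, 35.5% rose and 18.8% fell. Of the 25 genes that rose, 16 did so in all 17 alternative fits, and of the 4 that fell, TPX2 did so. The others that rose did so in 16 (AURKB), 15 (CDK1, AURKA), 14 (NCAPG), 12 (CENPF), 9 (SPC25), 8 (FOXM1, CDC20) and 5 (NUF2) of the 17. The others that fell did so in 11 (NCAPD2), 10 (PLK1) and 9 (BUB3) of the 17. Leaving out si-CTRL replicate 2, si-NEK2 replicate 1 or si-NEK2 replicate 2 left 1 gene that fell, and leaving out si-NEK2 replicate 3 left 2. With libraries scaled to equal totals, 16 rose and 8 fell. Under that scaling 942 of all 18717 genes were called higher and 3474 lower. How many of all genes rose or fell by adjusted p alone in the alternative fits was not counted.

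The median log2 fold change of the 55 genes was 0.21, against 0.01 for all genes and 0.12 for genes with a mean of at least 1000. It lay above 0 for 43 and below 0 for 12. Under equal totals the medians were -0.11 for all genes and 0.08 for the mitotic genes, of which 33 lay above 0 and 22 below. In 34 genes the groups did not overlap, 28 of them higher and 6 lower in si-NEK2, or 61.8%, against 55% of all genes and 65.4% of genes averaging 1000 or more. The data also bound the changes that were not called. For 41 of the 55 genes the 95% interval of the fold change lay wholly within 1.5-fold in either direction, compared with 41.7% of all genes and 65.5% of those with a mean of at least 1000. A fall of 1.5-fold lay outside the interval for 54 of the 55 genes. The same held for 12198 of all 18717 genes tested and for 6930 of the 7995 with a mean of at least 1000. The exception among the 55 was TPX2, with an interval of -0.60 to -0.20 on the log2 scale.

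**Figure D2:**
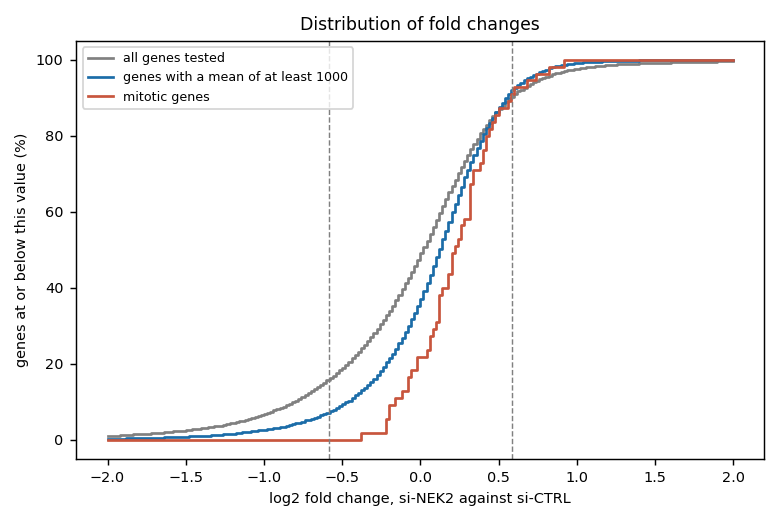
Cumulative share of genes (%) against the log2 fold change, si-NEK2 against si-CTRL, for the 55 mitotic genes (red), all 18717 genes tested (gray) and 7995 genes averaging 1000 or more normalized counts (blue), with dashed lines at 1.5-fold. The curve of the mitotic genes starts at -0.40 and ends at 0.90, and both other curves reach further on either side.

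**Figure D3:**
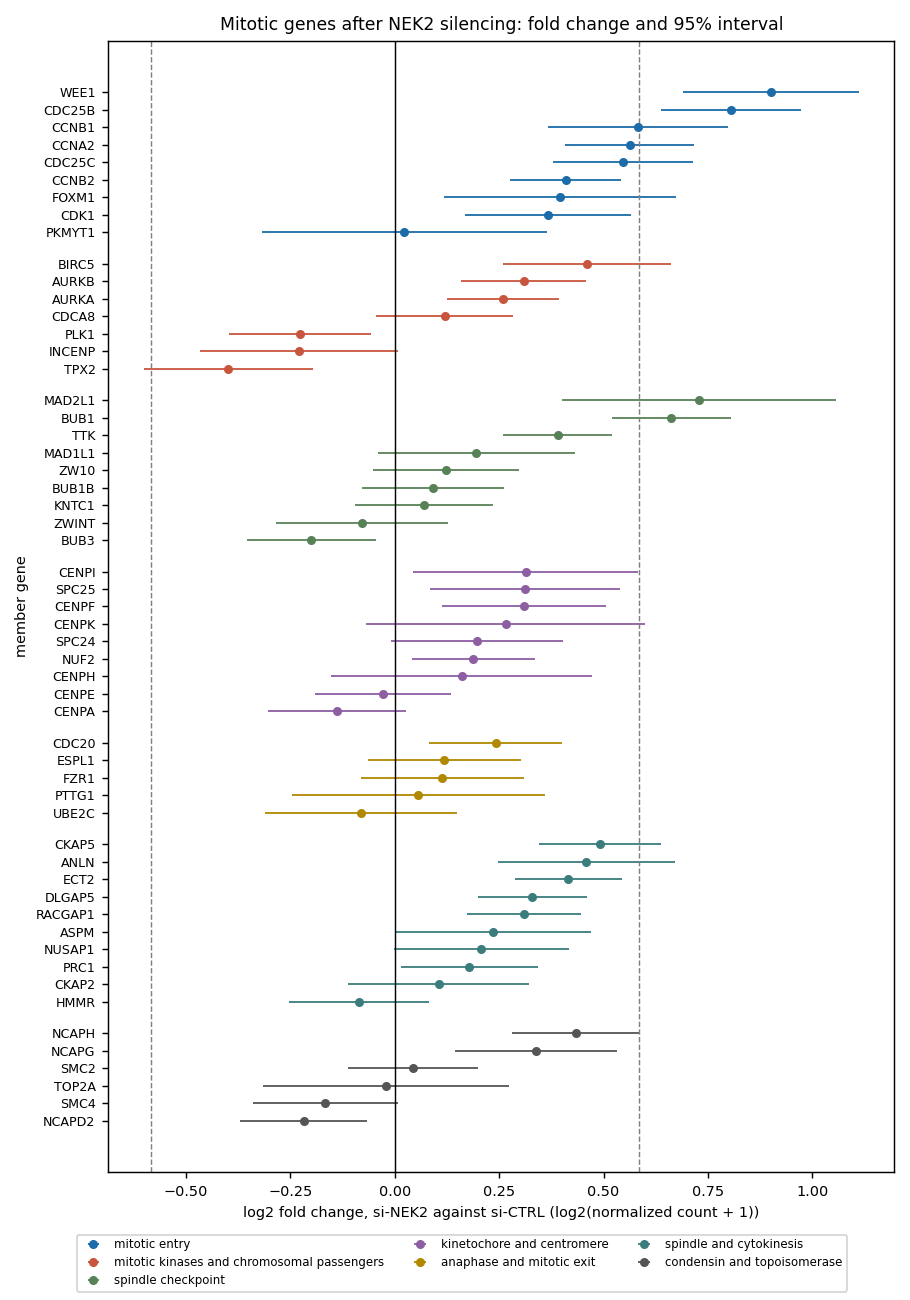
Log2 fold change, si-NEK2 against si-CTRL, of each mitotic gene by role (colours), as point estimates with 95% intervals from limma, with dashed lines at 1.5-fold. WEE1, CDC25B, MAD2L1 and BUB1 lie beyond the right line, and no point lies beyond the left one.

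Nearly all genes of mitotic entry were higher in si-NEK2. Of 9 genes, 8 rose, 2 of them past 1.5-fold, 0 fell, and their median log2 fold change was 0.55. The share that rose was 88.9%, against 21.8% of all genes tested and 35.5% of those averaging 1000 or more. WEE1 (GSHG0004629, chromosome 11 from 9595228 to 9611531 in hg19) encodes the kinase that holds CDK1 inactive. Its normalized counts were 1576, 1965 and 1907 in the si-CTRL libraries and 3379.7, 3464 and 3287 in the si-NEK2 libraries. The lowest si-NEK2 library lay well above the highest si-CTRL library. The mean rose from 1816 ± 209.9 (SD, n = 3) to 3377 ± 88.5 (SD, n = 3), a log2 fold change of 0.90 (SE 0.093, limma adjusted p = 0.000133). It was the largest change among the 55 genes.

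CDC25B (GSHG0018530, chromosome 20 from 3767419 to 3786768) encodes a phosphatase with the opposite action on CDK1. Its counts were 1109, 1185 and 1136 in the si-CTRL libraries and 2092, 1906 and 2005 in the si-NEK2 libraries, so that the groups were far apart and the libraries within each close together. The mean rose from 1143 ± 39 (SD, n = 3) to 2001 ± 92.9 (SD, n = 3), with a log2 fold change of 0.81 (SE 0.074, limma adjusted p = 7.41e-05). Its paralog CDC25C had counts of 1531, 1441 and 1403 in the si-CTRL libraries and 2027, 2157 and 2212 in the si-NEK2 libraries, without overlap, and a log2 fold change of 0.55. The CDC25C row overlaps FAM53C by 821 bases in hg19, and since the strand setting of the counting is not given, reads of the pair cannot be told apart there.

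CCNB1, the main mitotic cyclin, lay just inside the 1.5-fold limit. Its counts were 14856, 18684 and 18967 in the si-CTRL libraries and 25436, 26459.7 and 26325 in the si-NEK2 libraries, and si-CTRL replicate 1 was the lowest. The log2 fold change was 0.58 (95% interval 0.37 to 0.80), and it passed the limit when si-CTRL replicate 2 (0.64) or 3 (0.65) was left out, or si-NEK2 replicate 1 (0.60). CCNB2, the second B-type cyclin, rose by 0.41 on the log2 scale, from 5457, 5744 and 5661 to 7405, 7527 and 7462. CCNA2, which acts from S phase into mitosis, rose by 0.56, from 7430.3, 6739 and 6599 to 9922, 10520.4 and 10206, and reached 0.61 without si-CTRL replicate 1, past the limit. Its row overlaps EXOSC9 by 577 bases.

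CDK1 itself rose by 0.37 and FOXM1, the transcription factor of late cell cycle genes, by 0.40 on the log2 scale. FOXM1 overlaps the row RHNO1 // TULP3 by 898 bases. PKMYT1, the relative of WEE1, was the one gene of the group that did not rise. Its counts were 2435, 3002 and 3159 in the si-CTRL libraries and 3507, 2942 and 2346 in the si-NEK2 libraries, and the groups overlapped over most of their range. The log2 fold change was 0.023 (95% interval -0.32 to 0.36, limma adjusted p = 0.918). The PKMYT1 row overlaps PAQR4, a gene with a higher count, over 4245 bases.

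**Figure D4:**
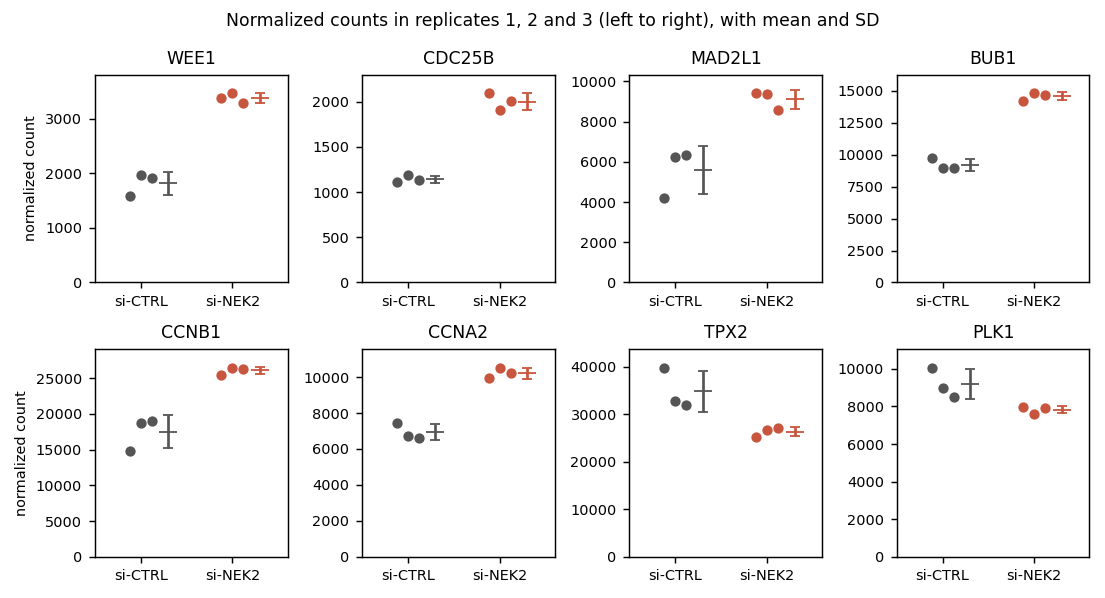
Normalized counts (axes from 0) of 8 mitotic genes in si-CTRL replicates 1 to 3 (gray) and si-NEK2 replicates 1 to 3 (red), with the mean and SD of each group beside the points (n = 3). For all 8 the groups are apart, with TPX2 and PLK1 lower in si-NEK2 and the other 6 higher.

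The kinases and the chromosomal passenger complex moved in both directions. Of 7 genes, 3 rose (BIRC5, AURKB and AURKA), 2 fell (TPX2 and PLK1), 0 were called at 1.5-fold and the median log2 fold change was 0.12. The shares that rose and fell were 42.9% and 28.6%, against 35.5% and 18.8% of genes averaging 1000 or more. AURKA, the Aurora kinase of centrosomes and spindle poles, had counts of 6774, 6650.0 and 6510.1 in the si-CTRL libraries and 7697, 8120.1 and 8046 in the si-NEK2 libraries, with a log2 fold change of 0.26. TPX2, the microtubule factor that activates AURKA at the spindle, went the other way. Its counts were 39782, 32686 and 32025 in the si-CTRL libraries and 25209.8, 26701 and 27016 in the si-NEK2 libraries, so that every si-NEK2 library lay below every si-CTRL library. The log2 fold change was -0.40 (SE 0.089, limma adjusted p = 0.00667), the largest decrease of the 55. si-CTRL replicate 1 was the highest library, and without it the value was -0.30.

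PLK1, the Polo-like kinase of spindle assembly and mitotic exit, had counts of 10059.9, 8964 and 8507 in the si-CTRL libraries and 7966, 7601 and 7899.5 in the si-NEK2 libraries. The groups did not overlap, and the log2 fold change was -0.23 (limma adjusted p = 0.0366). PLK1 fell in 10 of the 17 alternative fits. AURKB, the kinase of the passenger complex, rose with 5469, 4884 and 5118 in the si-CTRL libraries and 6284, 6337 and 6521 in the si-NEK2 libraries, a log2 fold change of 0.31. BIRC5 (survivin) rose by 0.46. Their partners in the same complex did not pass the test. INCENP, the scaffold, had a log2 fold change of -0.23 (limma adjusted p = 0.109). CDCA8 (borealin) had counts of 4612, 4065 and 4091 in the si-CTRL libraries and 4516, 4588 and 4745 in the si-NEK2 libraries and a log2 fold change of 0.12. Without si-CTRL replicate 1, INCENP was at -0.12, and CDCA8 rose by 0.18 (limma adjusted p = 0.0129).

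The checkpoint genes held 2 of the 4 called genes, while most of the others stayed near 0. Of 9, 3 rose, 1 fell and 5 passed no test, with a median of 0.12. The 33.3% that rose and 11.1% that fell compare with 35.5% and 18.8% of genes averaging 1000 or more. MAD2L1 (GSHG0023497, chromosome 4 from 120980577 to 120988013) encodes MAD2, which binds CDC20 and blocks the APC/C. Its counts were 4211, 6215 and 6329 in the si-CTRL libraries and 9399, 9347 and 8577 in the si-NEK2 libraries. The groups were apart, but si-CTRL replicate 1 was well below the other si-CTRL libraries. The mean rose from 5585 ± 1192 (SD, n = 3) to 9108 ± 461 (SD, n = 3), a log2 fold change of 0.73 (SE 0.14, limma adjusted p = 0.0037). Without si-CTRL replicate 1 it was 0.54, under the 1.5-fold limit.

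BUB1 (GSHG0017913, chromosome 2 from 111395275 to 111435684) encodes a checkpoint kinase of the kinetochore. Its counts were 9744, 8941 and 8952 in the si-CTRL libraries and 14211, 14806 and 14704 in the si-NEK2 libraries, with tight groups that lay far apart. The mean rose from 9212 ± 460.3 (SD, n = 3) to 14574 ± 318 (SD, n = 3), a log2 fold change of 0.66 (SE 0.063, limma adjusted p = 8.5e-05). It dropped under the 1.5-fold limit with equal totals (0.53) and with quantile scaling (0.55). BUB1B, which encodes the related BUBR1, had 12513, 10777 and 10702 in the si-CTRL libraries and 11805, 12232 and 12082 in the si-NEK2 libraries, a log2 fold change of 0.091 with overlapping groups. The BUB1B row is shared with PAK6, so that its count is uncertain.

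TTK (MPS1), the kinase that starts checkpoint signalling, rose by 0.39. BUB3, the partner of both BUB1 and BUBR1, fell, with 18736, 19579 and 21460.2 in the si-CTRL libraries and 17349, 16909 and 17696 in the si-NEK2 libraries and a log2 fold change of -0.20 (limma adjusted p = 0.0409). BUB3 fell in 9 of the 17 alternative fits. KNTC1, a subunit of the complex that brings dynein to kinetochores, had the smallest change of the group. Its counts were 2826, 2843 and 2839 in the si-CTRL libraries and 2757, 3013 and 3174 in the si-NEK2 libraries, a log2 fold change of 0.07. ZW10 (0.12), ZWINT (-0.078) and MAD1L1 (0.20), on the same scale, did not pass the test either, and the MAD1L1 row overlaps NUDT1.

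Kinetochore and centromere genes showed small differences. Of 9, 3 rose (CENPF, SPC25 and NUF2), 0 fell, 0 were called at 1.5-fold and the median was 0.20. Among genes averaging 1000 or more 35.5% rose, close to the 33.3% of this group. SPC24 and SPC25 encode a pair that anchors the microtubule-binding NDC80 complex. SPC24 had 6607, 7948 and 7617 in the si-CTRL libraries and 9111, 8556 and 7733 in the si-NEK2 libraries, which overlapped, and SPC25 had 1032, 1288 and 1045 in the si-CTRL libraries and 1411, 1333 and 1415 in the si-NEK2 libraries, which did not. Their log2 fold changes were 0.20 and 0.31. NUF2, from the outer end of that complex, rose by 0.19. CENPF rose by 0.31, whereas the kinesin CENPE, the gene of the group with the smallest change, had 13907, 12129 and 12423 in the si-CTRL libraries and 11966, 12841 and 12856 in the si-NEK2 libraries and a log2 fold change of -0.028.

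Of the inner kinetochore genes, CENPI (0.31), CENPK (0.27) and CENPH (0.16) had positive log2 fold changes that did not pass the test. Without si-CTRL replicate 1 the values were 0.17 for CENPI, which then passed (limma adjusted p = 0.0319), 0.071 for CENPK and -0.0038 for CENPH. CENPK and CENPH were among the genes whose si-CTRL replicate 1 was lowest, at 2802, 4102 and 4302 for CENPK and 1175, 1560.3 and 1754 for CENPH in the si-CTRL libraries. CENPA, the centromeric histone, was at -0.14, and its row is shared with SLC35F6.

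In the anaphase and exit group, 1 of 5 genes, CDC20, rose, 0 fell and the median was 0.11. CDC20, the APC/C activator that the checkpoint restrains, had 11269.7, 13189.6 and 12117 in the si-CTRL libraries and 14481, 14321 and 14355 in the si-NEK2 libraries, without overlap, and a log2 fold change of 0.24. FZR1 encodes the later activator, a protein also named CDH1 that is distinct from the E-cadherin gene CDH1 used above as a marker. FZR1 had 2795, 2561 and 2627 in the si-CTRL libraries and 3201, 2818 and 2639.6 in the si-NEK2 libraries, with overlap and a log2 fold change of 0.11. The FZR1 row overlaps POLRMT in hg19. PTTG1 (securin), the inhibitor of separase, showed the smallest change, with 14933, 10413 and 10230.0 in the si-CTRL libraries and 11759.6, 12088 and 12577 in the si-NEK2 libraries and a log2 fold change of 0.056 (95% interval -0.25 to 0.36). Here si-CTRL replicate 1 was far above all other libraries, and without it PTTG1 rose by 0.23 (limma adjusted p = 0.0025) and CDC20 by 0.19. Separase (ESPL1) was at 0.12 and UBE2C, the ubiquitin-conjugating enzyme of the APC/C, at -0.08 on the same scale.

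Of 10 spindle and cytokinesis genes, 5 rose, each by less than 1.5-fold, 0 fell and the median was 0.27. CKAP5, a microtubule polymerase, rose by 0.49, from 33789, 34001 and 31139 to 44546, 47115 and 47426. ANLN (0.46), a scaffold of the contractile ring, ECT2 (0.42), which activates RhoA there, and RACGAP1 (0.31), its partner, rose as well. DLGAP5, a spindle microtubule factor, rose by 0.33. ASPM (0.24), NUSAP1 (0.21), PRC1 (0.18) and CKAP2 (0.11) did not pass the test. Without si-CTRL replicate 1, NUSAP1 (0.32), PRC1 (0.24) and CKAP2 (0.22) rose and ASPM was at 0.11. HMMR, a spindle pole protein and hyaluronan receptor, had 9190.0, 7757 and 8204 in the si-CTRL libraries and 7781, 7927 and 7926 in the si-NEK2 libraries and a log2 fold change of -0.086.

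Condensin subunits moved in both directions. Of the 6 genes with TOP2A, 2 rose, 1 fell and the median was 0.01. These shares, 33.3% and 16.7%, were near the 35.5% and 18.8% of genes averaging 1000 or more. NCAPG and NCAPH are subunits of condensin I and both rose. NCAPG had 9857, 11819 and 11998 in the si-CTRL libraries and 13590.2, 14656 and 14179 in the si-NEK2 libraries (0.34 on the log2 scale), and NCAPH had 5909, 5451 and 5571 in the si-CTRL libraries and 7337, 7457 and 8078 in the si-NEK2 libraries (0.43). NCAPD2, another subunit of that complex, fell, with 33057, 34397 and 30768 in the si-CTRL libraries and 27321, 27632 and 29446 in the si-NEK2 libraries, a log2 fold change of -0.22 (limma adjusted p = 0.0276). NCAPD2 fell in 11 of the 17 alternative fits. Its row overlaps those of GAPDH and TAPBPL in hg19, and GAPDH had 983% of the NCAPD2 count.

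Neither ATPase of the core shared by both condensins passed the test. SMC2 had 3964, 3612 and 3574 in the si-CTRL libraries and 3767, 3764 and 3948 in the si-NEK2 libraries and a log2 fold change of 0.043. SMC4 had 19045, 16108 and 16384 in the si-CTRL libraries and 15104, 15751 and 14945 in the si-NEK2 libraries and a log2 fold change of -0.17 (limma adjusted p = 0.112), in a row that overlaps IFT80 // TRIM59. TOP2A, the topoisomerase that untangles chromosomes, had 15827, 22887 and 22263 in the si-CTRL libraries and 19056, 20684 and 19580.2 in the si-NEK2 libraries and a log2 fold change of -0.021 (95% interval -0.32 to 0.27). The lowest of its 6 values was in si-CTRL replicate 1 and the highest in si-CTRL replicate 2.

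**Figure D5:**
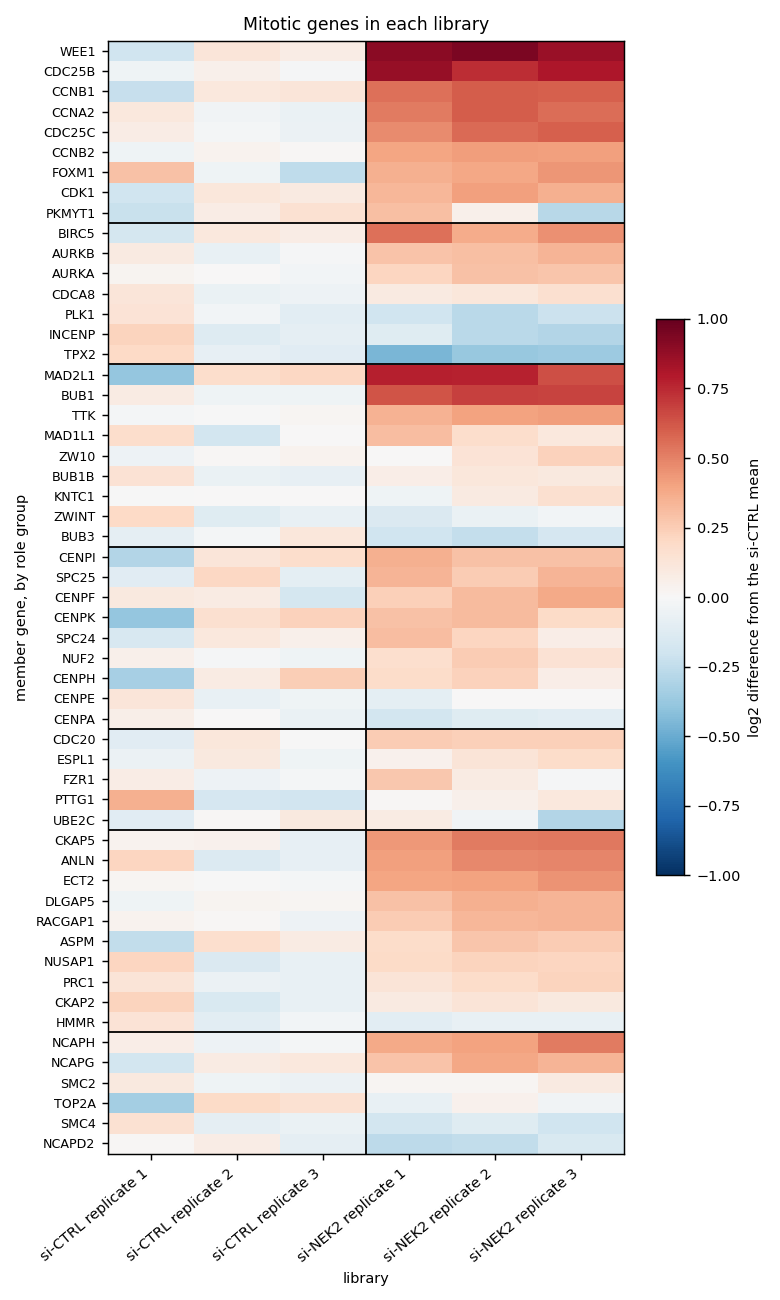
Log2 difference of each mitotic gene (rows, by role) from its si-CTRL mean in each of the 6 libraries (columns), from blue (lower) to red (higher). The increases of WEE1, CDC25B and BUB1 recur in all 3 si-NEK2 libraries, and si-CTRL replicate 1 departs from the other si-CTRL libraries in single rows such as MAD2L1, CENPK, TOP2A and PTTG1.

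si-CTRL replicate 1 departed from the mean of the other si-CTRL libraries by at least 1.2-fold in 21 of the 55 genes, compared with 4 for si-CTRL replicate 2 and 6 for si-CTRL replicate 3, each against the mean of the others. The corresponding counts among the si-NEK2 libraries were 1, 0 and 2. It departed downward most in CENPK (-0.58 on the log2 scale), MAD2L1 (-0.57) and TOP2A (-0.51), and upward most in PTTG1 (0.53) and FOXM1 (0.44). Without it, WEE1, CDC25B, BUB1 and CCNA2 were called higher and 0 genes lower, while 33 genes rose and 5 fell by adjusted p alone in limma. The genes added were CDCA8, BUB1B (0.16), MAD1L1 (0.28), CENPI, PTTG1, PRC1, NUSAP1 and CKAP2 among those that rose and TOP2A (-0.19) among those that fell. Each of them passed in this fit alone among the 17 alternatives, except CENPI, which passed in 2. In this fit 1385 of all 18717 genes were called higher and 2591 lower. How many of all genes rose or fell in it by adjusted p alone was not counted. The 55 genes together took 0.817%, 0.808% and 0.785% of all normalized counts in si-CTRL replicates 1 to 3 and 0.824%, 0.842% and 0.847% in si-NEK2 replicates 1 to 3.

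Levels were also ordered per kb of the longest coding transcript (GENCODE release 29). In si-CTRL they ran from 183 normalized counts per kb for ESPL1 to 12159 for UBE2C. UBE2C, PTTG1 (11083) and TPX2 (9662) led, followed by CCNB1 (8069). In si-NEK2, CCNB1 came first (12021 per kb), ahead of UBE2C (11544) and PTTG1 (11347), and TPX2 (7298) was in place 8. ESPL1 was lowest in both groups. The length was that of the longest annotated transcript whether or not the cells express it, so that the order depends partly on annotation. Rows shared or overlapping with other genes were ordered with the rest.

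Partner genes were then compared within each library, as the log2 ratio of their counts, in 9 pairs. With 3 libraries against 3, the two-sided exact permutation test cannot give a p under 0.1, so that no pair could pass 0.05. In 5 pairs the ratios of the groups did not overlap, each with an exact p = 0.1 (0.18 after Benjamini-Hochberg adjustment over the pairs). The ratio of WEE1 to PKMYT1 moved most, from 0.635 to 1.17, a log2 difference of 0.88 (SE 0.16). The ratio of BUB1 to BUB1B turned over, from 0.815 to 1.21, a log2 difference of 0.57 (SE 0.03). For CDC25B against CDC25C the log2 difference was 0.26 (SE 0.09), for SMC2 against SMC4 0.21 (SE 0.05) and for CCNB1 against CCNB2 0.17 (SE 0.09). The BUB1B row is shared with PAK6, and the rows of PKMYT1, CDC25C and SMC4 overlap PAQR4, FAM53C and IFT80 // TRIM59. The ratios of these pairs are therefore uncertain. The groups overlapped for CDC20 against FZR1 (0.13), SPC24 against SPC25 (-0.11), NCAPG against NCAPH (-0.10) and AURKA against AURKB (-0.05), with exact permutation p-values between 0.4 and 0.6.

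Other genes of the same machinery, 86 in all, were read alongside. They comprised other APC/C, kinetochore, condensin, cohesin, mitotic entry and DREAM genes. Of these, 5 were called higher and 4 lower, whereas 8.23% of all genes tested were called higher and 14.3% lower. Without si-CTRL replicate 2, 8 were called higher. The median log2 fold change of the 86 was 0.14, and by adjusted p alone 32 rose (37.2%) and 9 fell (10.5%). Of all genes 21.8% rose and 21.3% fell, and of those averaging 1000 or more 35.5% and 18.8%. CENPB, ESCO1 and OIP5 had larger fold changes than any of the 55. CENPB, which binds a motif in centromeric satellite DNA, had 1932, 2484 and 2593 in the si-CTRL libraries and 992, 895 and 814 in the si-NEK2 libraries, and its log2 fold change was -1.37 (SE 0.12, limma adjusted p = 7.27e-05). MIS18A (-0.88) and OIP5 (0.97), which act together in loading CENPA, moved in opposite directions. MIS18A had 2339.7, 2929 and 3029 in the si-CTRL libraries and 1697, 1504 and 1304 in the si-NEK2 libraries. OIP5 had 1322, 2299 and 2389 in the si-CTRL libraries and 4160.4, 4106 and 3178 in the si-NEK2 libraries, with si-CTRL replicate 1 the lowest.

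UBE2S, which extends ubiquitin chains for the APC/C, fell from 9425, 9545 and 10500.0 to 6454, 5938 and 4827, a log2 fold change of -0.78. ANAPC16, an APC/C subunit, rose from 2468, 3435 and 3305 to 5539, 5399.8 and 5389 (0.84 on the log2 scale). ESCO1, a cohesin acetyltransferase, rose from 439, 443 and 537 to 894, 1003 and 956 (1.01). SPDL1, which brings dynein to kinetochores, rose from 11423, 13298 and 13144 to 19773, 20486 and 20489 (0.69). SMC1A, a cohesin core subunit whose row is shared with a microRNA gene, fell from 8115, 6266 and 6081 to 4171, 4474 and 4581 (-0.62). ANAPC11 was also called higher (0.63), but its adjusted p was 0.0704 in limma. The 12 DREAM and B-MYB genes held 0 calls at 1.5-fold and 4 that rose by adjusted p alone, with a median of 0.08. The 33.3% that rose compares with 21.8% of all genes and 35.5% of those averaging 1000 or more.

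For comparison, 35 genes of the G1/S transition and DNA replication had a median log2 fold change of 0.04. At 1.5-fold 0 were called higher and 3 lower, against 8.23% and 14.3% of all genes tested. By adjusted p alone 12 rose (34.3%) and 8 fell (22.9%), against 21.8% and 21.3% of all genes. Among those called lower, CCNE1, the G1/S cyclin, had 446, 356 and 415 in the si-CTRL libraries and 62.2, 52.4 and 81.1 in the si-NEK2 libraries, a log2 fold change of -2.64. No test was made of the difference between this list and the mitotic genes.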

How the data were processed

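PolyA-enriched RNA from MDA-MB-231 was sequenced in 3 si-CTRL and 3 si-NEK2 libraries, which the methods give as 100 bp single-end reads and another passage of the paper as paired-end. The authors deposited a signal for each gene and library, which is the count of reads after division by a DESeq2 size factor, on hg19 with FAST DB annotation and with replicates not pooled. The submitters' processing notes name STAR 2.4.0, SAMtools, Picard, FastQC and DESeq2. The counter and its strand setting are not given in the sources used here, so that overlapping genes may share reads. All values were whole multiples of what 1 read is worth in their library, within a tolerance of 0.02 reads, which gave back between 52625492 and 87454509 reads per library. Nothing says that the libraries came from separate cultures beyond their harvest in triplicate, so p-values measure the spread between these samples.

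Genes averaging 10 or more normalized counts (18717) were tested with limma 3.58.1 (lmFit, eBayes with a trend) in R 4.3.3 on log2(value + 1), which understates the change of low genes, and p-values were adjusted over all of them by Benjamini and Hochberg. The study's thresholds were used (p of at most 0.05, fold change of at least 1.5). Partner pairs were compared with an exact permutation test, written out in Python with numpy 2.4.6. The script was tested on simulated data. Alternatives were edgeR 4.0.16 (quasi-likelihood) and DESeq2 1.42.0 on the recovered reads, pseudocounts of 0.1 and 5, no filter or a mean of at least 50, equal total, upper quartile and quantile scaling, leaving out each library in turn, blocking on the replicate number, no trend, a fold change of at least 2, a shorter promoter window and TTTGAA alone. The adjusted p without a fold limit, the background of genes with a mean of at least 1000 and a fold change of at least 1.4 were added after seeing the data.

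The 55 genes and all lists were chosen with earlier results of these data known. Values in every library were given for genes called with the adjusted p, for the gene of each role with the smallest change and for both genes of a pair. Of the other machinery, up to 5 genes in each direction were to be named, by size of change, among those called with the adjusted p and with a mean of at least 50, and 4 in each direction met this. CCNA2, TPX2, PLK1, BUB3, NCAPD2, CKAP5 and the si-CTRL values of CENPK and CENPH, as well as ANAPC11 and CCNE1, were chosen after their values were seen. Promoters came from RefSeq (GRCh38.p14) and were matched by symbol. The siRNA sequences were not used here, and some single-gene results of the G1/S list are not reported here.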

Additional observations from a re-analysis of the deposited data

How the results depend on the processing

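The absence of genes called lower among the 55 held in all alternatives, including edgeR, DESeq2 and a fold change of at least 1.4, and NEK2 stayed between -3.45 and -3.19. The number called higher, with p or adjusted p, was 0 at a fold change of at least 2 and 8 at 1.4, and between 4 and 5 with each library left out. By adjusted p alone, the number that rose was 16 with equal totals and between 19 and 33 with each library left out. The number that fell was 1 without a trend, 1 without a filter, 8 with equal totals, 7 with upper quartile scaling and between 1 and 5 with each library left out. The matching numbers over all genes were not counted in these fits, so that these counts stand without their background. Of the other machinery, 3 were called higher with equal totals, 1 at 2-fold, 9 at 1.4-fold and between 4 and 8 with each library left out (8 without si-CTRL replicate 2), and 1 was called lower at 2-fold. Over all genes, the share of higher among all calls was 36.6%, but 21.3% with equal totals and 45.9% with quantile scaling. The homology region letters were found in 34.9% of the promoters in the shorter window. The causes of these differences were not tested, except that the fold limits and the shorter window follow from their construction.

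The replicate numbers did not pair the libraries (correlations of the deviations between libraries of the same number were -0.091, 0.047 and -0.15). With the replicate block, 4 of the 55 were called higher and 0 lower, and by adjusted p alone 22 rose and 1 fell. In that fit 1499 of all 18717 genes were called higher and 2585 lower, and those passing by adjusted p alone were not counted.

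Directions of genes near 0 turned under some settings. With equal totals these were PKMYT1 (-0.11), CDCA8 (-0.0088), BUB1B (-0.037), KNTC1 (-0.058), ZW10 (-0.0056), FZR1 (-0.015), PTTG1 (-0.072), ESPL1 (-0.0093), CKAP2 (-0.023) and SMC2 (-0.085). With quantile scaling they were PKMYT1 (-0.036), BUB1B (-0.045), KNTC1 (-0.0015), PTTG1 (-0.085), CKAP2 (-0.017) and SMC2 (-0.038), and with upper quartile scaling PKMYT1 (-0.043), PTTG1 (-0.0097) and SMC2 (-0.023). With each library left out, the lowest and highest values were -0.12 to 0.17 for PKMYT1, -0.14 to 0.022 for ZWINT, -0.067 to 0.032 for CENPE, -0.0038 to 0.29 for CENPH, -0.16 to 0.025 for UBE2C, -0.039 to 0.23 for PTTG1 and -0.19 to 0.074 for TOP2A. The 4 calls kept their direction throughout.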
